A study of Mus musculus with 2 samples.

Results

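The genes described here are 34 genes of glucose use: glucose and lactate transporters, the enzymes of glycolysis, the entry of pyruvate into mitochondria, the pentose phosphate pathway and glycogen synthase. They were chosen by name as the listed genes whose rows are present in both deposited tables. The rule holds no measured value, but the genes were chosen with earlier results of these data known. All 34 were found among 14366 genes. The study sorted hematopoietic stem cells (HSC) as Lin−Sca-1+c-Kit+CD150+CD48− cells from the bone marrow of 8 pooled wild-type C57/B6 mice aged 6 to 8 weeks. Both groups were held for 48 h in Myelocult M5300 medium with stem cell factor at 100 ng/ml, thrombopoietin at 50 ng/ml and Primocin. The DFO group received 10 µM DFO (deferoxamine), a compound that binds iron, and the vehicle group received sterile water. From each group 20000 live cells were loaded for droplet sequencing of transcript 3′ ends with molecule barcodes. There was 1 library per group, from pooled animals, so the differences below carry no replicate check and no test was run. Intervals are exact 95% intervals that cover counting error only, Poisson for molecules and Clopper-Pearson for shares.

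Glucose enters a cell through facilitative transporters and is trapped by hexokinases. Upper glycolysis spends ATP to cut the sugar into triose phosphates, and lower glycolysis turns those into pyruvate with a net yield of ATP. Pyruvate is either reduced to lactate and exported or carried into mitochondria, while the pentose phosphate pathway draws off glucose 6-phosphate for NADPH and ribose. HSC are known for their reliance on glycolysis in the marrow. The prolyl hydroxylases that mark hypoxia-inducible factors for degradation need iron, and many glycolytic genes are known targets of those factors, which bind DNA at a core written RCGTG (ACGTG or GCGTG).

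Promoters of 5 members are shown as examples from the pattern described below for single cells. Ldha, Pgk1 and Slc16a3 varied between cells in step with the pathway, while Slc16a1 and Taldo1 did not. Each is the 250 bases before a RefSeq transcript start of build GRCm38.p6, read 5′ to 3′ on the strand of the gene, and all 5 genes lie on the plus strand. They are Ldha at chr7:46845554-46845803, Pgk1 at chrX:106186850-106187099, Slc16a3 at chr11:120948817-120949066, Slc16a1 at chr3:104638414-104638663 and Taldo1 at chr7:141391910-141392159. Capitals mark ACGTG or GCGTG on either strand, which reads CACGT or CACGC where the core lies on the other strand. A palindrome CACGTG counts on both strands.
Ldha: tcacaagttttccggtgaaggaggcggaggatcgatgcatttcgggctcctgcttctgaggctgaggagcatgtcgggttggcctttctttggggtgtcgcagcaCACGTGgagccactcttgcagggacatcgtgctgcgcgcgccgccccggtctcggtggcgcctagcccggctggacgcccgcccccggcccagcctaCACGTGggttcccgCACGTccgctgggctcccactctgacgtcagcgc
Pgk1: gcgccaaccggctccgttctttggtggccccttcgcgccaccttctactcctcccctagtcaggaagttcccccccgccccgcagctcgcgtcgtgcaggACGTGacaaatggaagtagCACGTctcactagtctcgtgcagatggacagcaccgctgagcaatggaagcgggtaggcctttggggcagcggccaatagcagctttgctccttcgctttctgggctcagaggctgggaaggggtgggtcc
Slc16a3: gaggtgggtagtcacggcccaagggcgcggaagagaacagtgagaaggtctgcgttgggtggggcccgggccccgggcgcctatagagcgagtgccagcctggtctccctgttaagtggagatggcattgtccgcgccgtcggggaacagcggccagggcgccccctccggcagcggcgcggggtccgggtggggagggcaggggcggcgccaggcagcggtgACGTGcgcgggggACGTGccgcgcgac
Slc16a1: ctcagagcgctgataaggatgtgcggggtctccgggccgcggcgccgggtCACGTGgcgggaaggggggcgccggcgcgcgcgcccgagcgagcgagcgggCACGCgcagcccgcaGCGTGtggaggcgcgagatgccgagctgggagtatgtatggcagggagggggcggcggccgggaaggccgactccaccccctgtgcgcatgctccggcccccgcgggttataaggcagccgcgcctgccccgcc
Taldo1: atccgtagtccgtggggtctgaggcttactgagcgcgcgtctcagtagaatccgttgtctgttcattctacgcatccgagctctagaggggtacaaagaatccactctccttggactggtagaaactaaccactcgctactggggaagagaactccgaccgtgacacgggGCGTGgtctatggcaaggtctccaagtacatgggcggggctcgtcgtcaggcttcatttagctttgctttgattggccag

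The Ldha window shown held 5 cores, all ACGTG and 4 of them in 2 palindromes, while Pgk1 and Slc16a3 held 2 each, all ACGTG. A second Ldha window, at chr7:46846832-46847081 and not shown, held 1 GCGTG and no ACGTG. Slc16a1 held 4, of which 2 were ACGTG and form a palindrome, so the window of a gene that did not vary with the pathway holds the letters too. Taldo1 held 1 GCGTG. The examples do not stand for all members. Aldoc, Eno1, Tpi1, Pfkl, Pfkp and Pdk1 varied more with the pathway than Ldha in both libraries, and their windows held no ACGTG. Slc2a1, Aldoa and Pgam1 also varied more than Ldha and held ACGTG in at least 1 window. RefSeq promoters were found for 33 of the 34 members (not for Slc2a3), 48 in all, and 77.1% of these held at least 1 core, against 38.6% of all 32851 promoters and 58.4% of the 8993 promoters of genes at 5 CPM or more. By branch the core was in 20 of 25 promoters of the 14 glycolysis genes summed below and in 6 of 7 pentose phosphate promoters. ACGTG alone was in 10 of 25 promoters of these glycolysis genes and in 0 of 7 pentose phosphate promoters, against 16.6% of all promoters and 22.9% of those of genes at 5 CPM or more. Some windows of the same gene overlap and share a site, as for Aldoa. By gene, ACGTG was in 7 of the 14 glycolysis genes and in 0 of 6 pentose phosphate genes. It was in 1878 of the 7099 genes at 5 CPM or more with a promoter. No core was found in the windows of Tpi1, Gpi1, Dlat and Gys1. A match describes these letters and is no evidence of binding.

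The tables held 8708 vehicle and 9852 DFO cells, with 260938938 and 284326017 molecules and medians of 27805.5 and 27114 molecules per cell. The libraries shared 24 cell barcodes. Of 10 HSC markers 8 reached 5 CPM, among them Ly6a (Sca-1), Hlf and Mecom; Cd48, whose protein the sort selected against, stood at 103 CPM in the vehicle and 108 CPM in the DFO library after culture. Macrophage or dendritic cell, lymphoid and stromal markers summed to at most 5.06 CPM in either library. Megakaryocyte markers summed to 1699 CPM in the vehicle and 737 CPM in the DFO library, with all 7 markers at 5 CPM or more lower in DFO. Erythroid markers summed to 44.7 and 28.6 CPM (3 of 3 lower) and neutrophil-monocyte markers to 195 and 177 CPM (3 of 3 lower), whereas HSC markers summed to 250.4 CPM in the vehicle and 287 CPM in the DFO library, with 5 of 8 higher. Mitochondrially encoded transcripts made up 3.80% and 4.35% of molecules, and ribosomal protein transcripts 25.6% and 24.1%. These lists move with the libraries across every comparison below, and their part in the results was not tested.

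Levels are given as CPM, molecules per 1000000 of the library total, and a difference is log2((DFO CPM + 1)/(vehicle CPM + 1)), negative where the DFO library was lower. Together the 34 genes made up 1.34% of vehicle and 1.25% of DFO molecules. All 34 had a mean of 5 CPM or more. Of them 22 were lower and 12 higher in the DFO library; their median was −0.080. Below 0 lay 42.1% of the 8886 genes at that level, whose median was 0.019. A difference of −0.25 or lower was found for 3 members, the aldolase gene Aldoc, the lactate exporter gene Slc16a3 and the glucose transporter gene Slc2a3, against 2.58% of all genes. No member reached 0.25, against 1.4% of all genes. The counting intervals of both libraries were apart for 29 members and overlapped for Pfkm, Pfkfb3, Taldo1, Rpia and Gys1. At this depth they were also apart for 78 of 88 ribosomal protein genes at 5 CPM or more. Of the other pathway genes and regulators described below, 17 of 27 and 3 of 8 at that level were apart. The share over all genes is not given here, so the count is not particular to the members. Most differences of the members were small in size but larger than counting error. That error treats molecules as independent and leaves out the variation between cells, and variation between cultures was not measured.

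**Figure D1:**
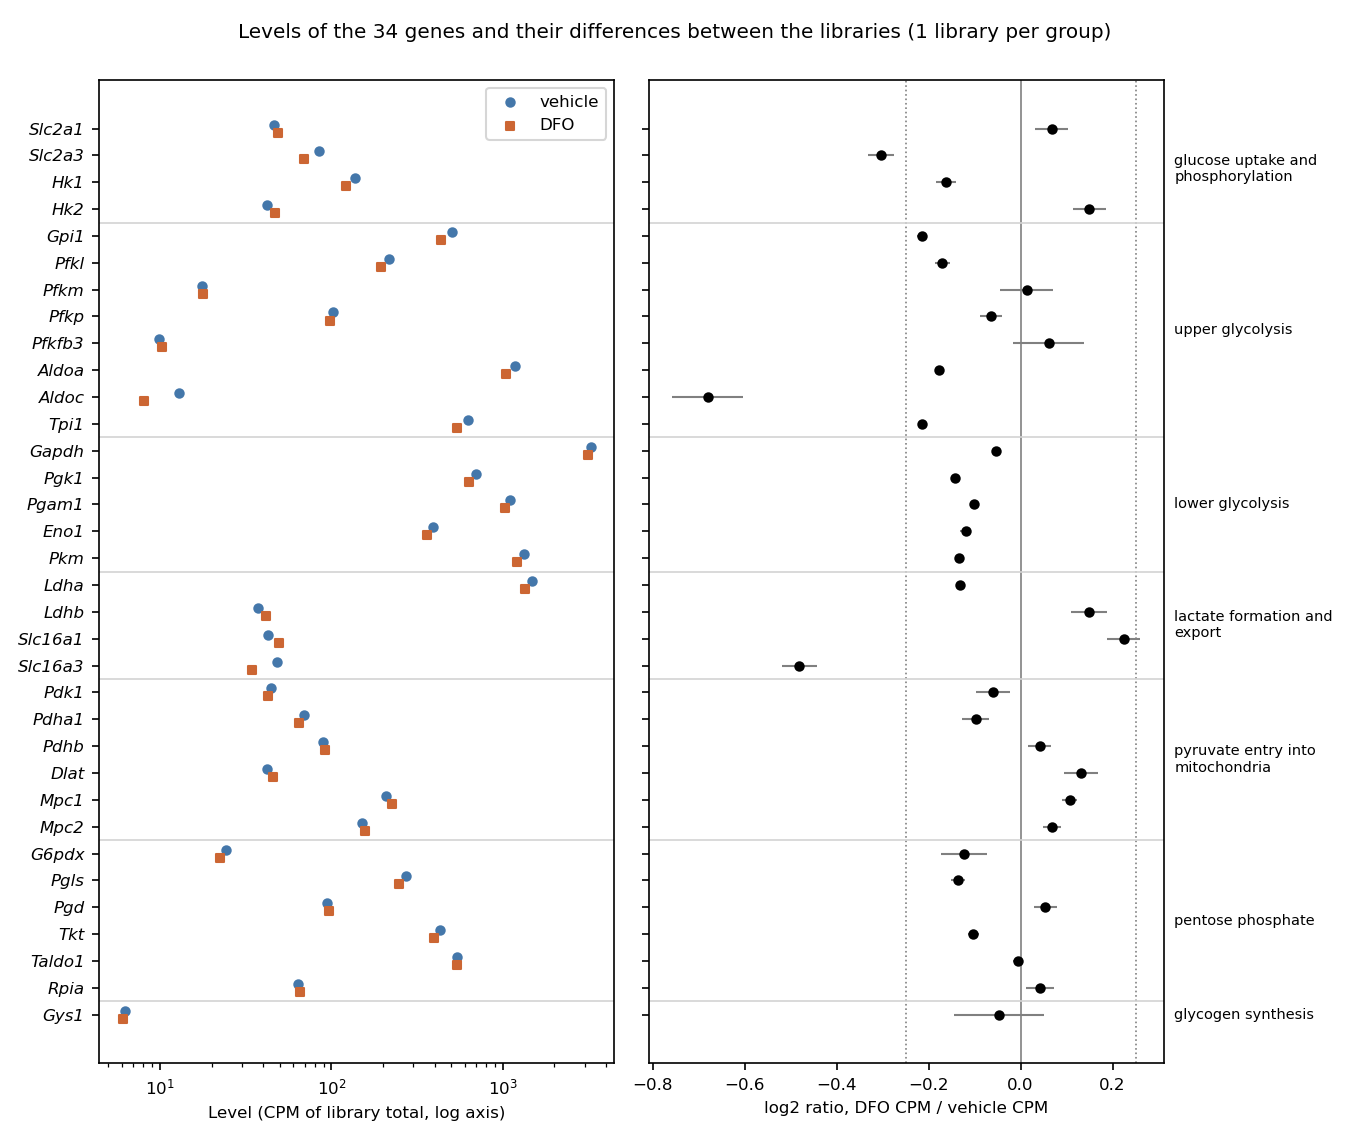
Left, level of each of the 34 genes in the vehicle (circles) and DFO (squares) library, in CPM on a log axis. Right, log2 ratio of DFO to vehicle CPM without a pseudocount, with its 95% counting interval; dotted lines lie at −0.25 and 0.25. Aldoc, Slc16a3 and Slc2a3 lie left of the dotted line, all 5 lower glycolysis genes lie left of 0, and the 12 genes right of 0 all lie within 0.25.

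Glucose uptake and phosphorylation split by isoform. Slc2a3 (GLUT3, a high-affinity glucose transporter; chr6:122727809-122802363) was measured at 85.0 CPM in the vehicle and 68.9 CPM in the DFO library, a difference of −0.30. Slc2a1 (GLUT1, the transporter of most dividing cells; chr4:119108745-119137330) stood at 46.4 and 48.6 CPM, a difference of 0.066. The more abundant transporter transcript was therefore lower in DFO and the less abundant one slightly higher, and the Slc2a1 share of their molecules was 35.3% (34.8 to 35.8) in vehicle and 41.4% (40.9 to 41.9) in DFO. This shift of 6.06 percentage points was 2.89 points with equal cluster shares, and within clusters it ran from −1.06 points in cluster 7 to 9.64 points in cluster 9. Hk1, the hexokinase of most tissues, stood at 137 and 122 CPM, a difference of −0.16. Hk2, the hexokinase known for its inducible expression, stood at 42.3 and 46.9 CPM, a difference of 0.15. The Hk1 share of the pair was 76.4% (76.0 to 76.8) and 72.3% (71.9 to 72.7). Hk3, not among the 34 genes, was at 8.52 and 7.73 CPM. Weighting the clusters described below equally in both libraries brought Slc2a3 to −0.11, no longer past −0.25, and Hk2 to 0.079. In cells thinned to 10000 molecules Slc2a3 was at −0.246, also not past −0.25, and Slc2a1 at 0.12. The 4 genes summed to 310 CPM for vehicle against 287 CPM for DFO, and with equal cluster shares its difference went from −0.11 to −0.053.

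Upper glycolysis had the most negative log2 ratio of the 6 branch sums with more than 1 gene, −0.19, from 2661 CPM in the vehicle to 2338 CPM in the DFO library, with 6 of 8 genes lower. Aldoa, the main aldolase gene here, stood at 1173 and 1038 CPM, a difference of −0.18. Tpi1, which interconverts the triose phosphates, stood at 623 and 537 CPM, a difference of −0.21. Gpi1, which turns glucose 6-phosphate into fructose 6-phosphate, stood at 504 and 435 CPM, also −0.21. These abundant enzymes carry the branch sum. Aldoc (chr11:78323073-78327781), a minor aldolase gene better known from brain, was at 12.9 CPM in vehicle (12.5 to 13.4) and 8.07 CPM in DFO (7.74 to 8.41), a difference of −0.62; it provided 1.09% and 0.771% of aldolase molecules. Of the phosphofructokinase genes, which encode the committed step, Pfkl held 64.4% and 62.5% of their molecules, Pfkp 30.3% and 31.7%, and Pfkm 5.23% and 5.76%. Pfkl differed by −0.17 and Pfkp by −0.063, and Pfkm differed by 0.013 with overlapping intervals. Pfkfb3, which makes the phosphofructokinase activator fructose 2,6-bisphosphate, was at 9.81 and 10.2 CPM, also with overlapping intervals. Pfkm and Pfkfb3 took both signs across 11 ways of counting.

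In lower glycolysis all 5 genes were lower in the DFO library, and their sum was 6791 CPM in vehicle and 6383 CPM in DFO, a log2 ratio of −0.089. Gapdh, often used as a reference transcript, stood at 3260 and 3143 CPM, a difference of −0.053. Pgk1, the first ATP-yielding step, stood at 698 and 632 CPM, a difference of −0.14. Pkm, the pyruvate kinase gene, stood at 1336 and 1217 CPM, a difference of −0.13. Pgam1 and Eno1 differed by −0.10 and −0.12. The 3′ counts cannot tell Pkm splice forms apart. Transcript ends with at least 98% identity over 91 bases, the length of the read, were found for 7 members, with 49 such copies for Gapdh, 2 each for Eno1, Pkm and Ldha, and 1 each for Gpi1, Ldhb and Mpc1, so the counts of these 7 genes are uncertain.

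Lactate formation and export showed the clearest exchange of isoforms. Slc16a3 (MCT4, a lactate exporter typical of glycolytic cells; chr11:120948484-120959000) was measured at 47.9 CPM in the vehicle and at 34.3 CPM in the DFO library, a difference of −0.47. Slc16a1 (MCT1, which carries lactate and pyruvate in both directions; chr3:104638664-104658462) was at 42.4 and 49.6 CPM, a difference of 0.22, the highest among the 34 genes. Over all cells the order of the pair was therefore reversed: Slc16a1 made up 47.0% (46.3 to 47.6) of their molecules in vehicle and 59.1% (58.5 to 59.7) in DFO. The shift was 12.1 percentage points, between 9.76 and 13.4 over the other ways of counting, and the Slc16a1 share was higher in DFO in 10 of 10 clusters, by 8.14 to 14.3 points. The order itself depended on the cluster: Slc16a1 was already the larger share in vehicle cells of clusters 0, 1 and 6, and it was still the smaller in DFO cells of cluster 7, at 42.8%. In vehicle cells of clusters 2 and 9 it was at 51.4% (49.6 to 53.2) and 50.3% (42.7 to 57.9), with intervals that span an even split. Ldha, the lactate dehydrogenase gene that dominates in glycolytic cells, was at 1479 and 1349 CPM, a difference of −0.13. Ldhb, the form typical of heart, was at 37.3 and 41.3 CPM, a difference of 0.14 that went to 0.050 with equal cluster shares. Ldha still held 97.5% and 97.0% of lactate dehydrogenase molecules.

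**Figure D2:**
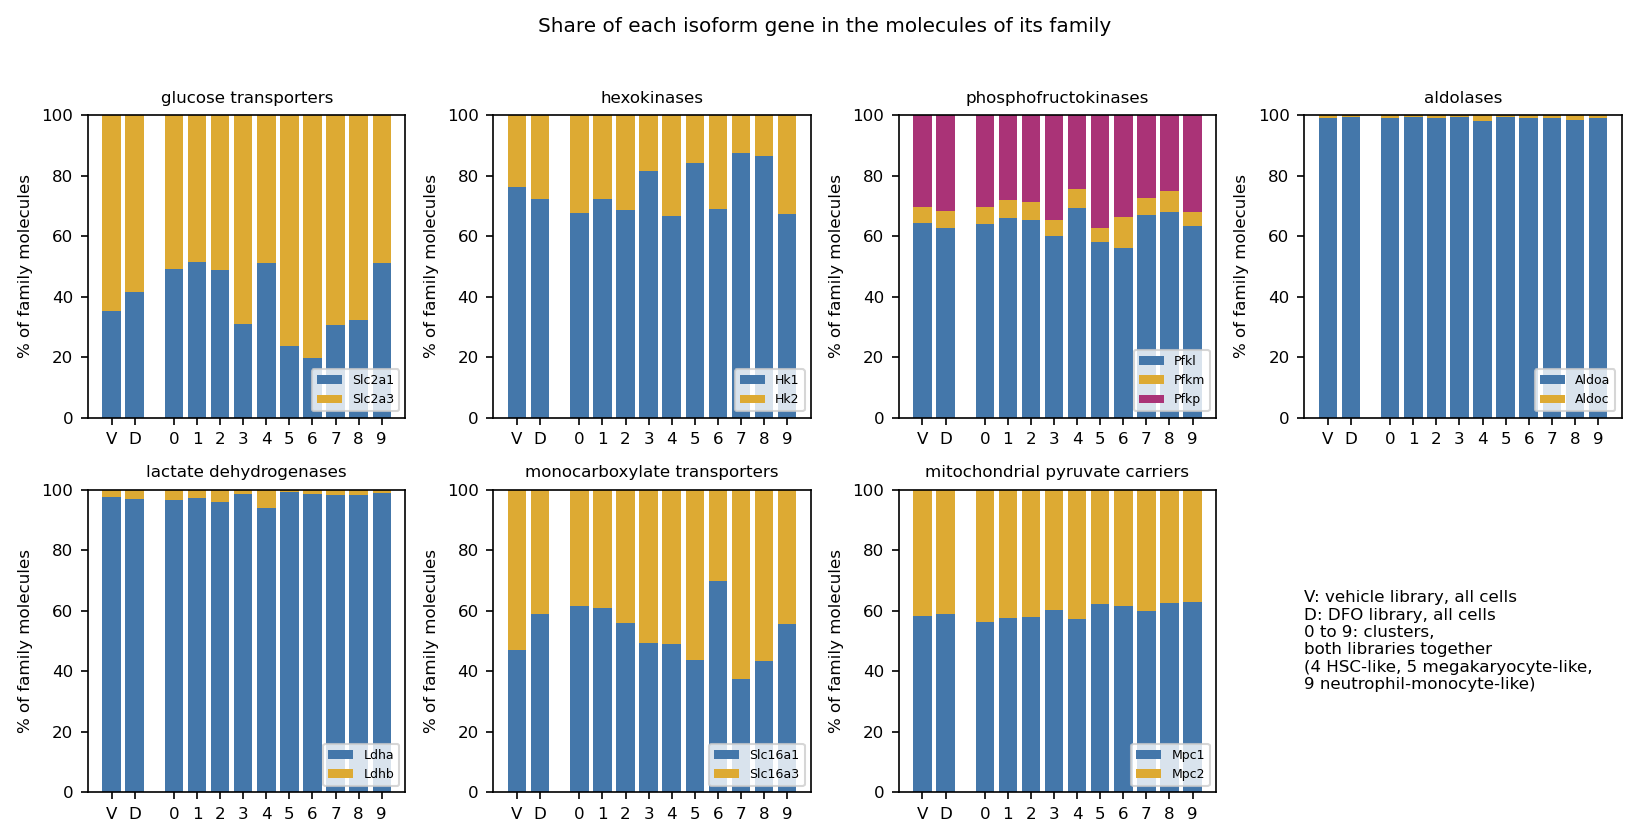
Share of each gene in the molecules of its isoform family (vertical axis, percent) for all cells of the vehicle (V) and DFO (D) library and for clusters 0 to 9 with both libraries together. Slc16a1 goes from 47.0% to 59.1% between the libraries, Ldhb is widest in HSC-like cluster 4 and nearly absent from megakaryocyte-like cluster 5, and the Slc2a3 share is highest in clusters 5 and 6 (76.4% and 80.2%), followed by clusters 7, 3 and 8 (69.4%, 69.2% and 67.9%).

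Pyruvate entry was the only branch whose sum was higher in the DFO library, at 604 CPM for vehicle against 628 CPM for DFO, a log2 ratio of 0.055, with 4 of 6 genes higher. Mpc1 and Mpc2, which together form the mitochondrial pyruvate carrier, stood at 209 and 226 CPM (0.11) and at 150 and 157 CPM (0.067). Dlat, the acetyltransferase of the pyruvate dehydrogenase complex, stood at 41.9 and 45.9 CPM, a difference of 0.13. Pdhb, the beta subunit of its first enzyme, was higher by 0.041, while Pdha1, the alpha subunit, was lower, from 69.1 to 64.6 CPM (−0.096). Pdk1, the kinase that inactivates the complex, was at 44.3 and 42.6 CPM (−0.058). All these differences lie within 0.25, and the branch was higher in DFO in 10 of 10 clusters, with intervals apart in 6.

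The pentose phosphate genes summed to 1425 CPM in vehicle and 1372 CPM in DFO, a log2 ratio of −0.055, with 4 of 6 genes lower. In the oxidative arm, G6pdx, the rate-limiting dehydrogenase, was at 24.4 and 22.4 CPM (−0.12), Pgls was lower by 0.14 on the log2 scale and Pgd, the second NADPH-yielding enzyme, was higher by 0.053. In the non-oxidative arm, which exchanges sugars with glycolysis, Tkt was at 429 and 399 CPM (−0.10), Rpia differed by 0.041 and Taldo1, the most abundant of the branch, was at 543 and 540 CPM with overlapping intervals. Each arm held both lower and higher genes. Gys1, the glycogen synthase gene, was at 6.25 and 6.05 CPM, also with overlapping intervals.

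Of 54 other listed genes of these pathways, 46 were present and 27 had a mean of 5 CPM or more, with 12 lower, 15 higher and a median of 0.0029. Only Pygl, the liver glycogen phosphorylase gene, passed 0.25, from 32.0 CPM in vehicle to 26.1 CPM in DFO (−0.28). Of 8 regulators at that level 7 were higher and 1 lower: Hif1a, which encodes the oxygen-regulated factor, differed by 0.12, the prolyl hydroxylase gene Egln1 by 0.12 and its relative Egln3 by −0.10. None of these 8 passed 0.25.

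Cells were then grouped by other genes. The 34 genes, the other pathway genes and listed cell cycle, mitochondrial, ribosomal and sex-linked genes were left out of the clustering. Of 10 clusters 3 could be named from their markers: cluster 4 as HSC-like (Sult1a1 and Procr among its 10 leading genes), cluster 5 as megakaryocyte-like (Cavin2, Pf4 and Clec1b) and cluster 9 as neutrophil-monocyte-like (Mpo, Ctsg, Elane and Ms4a3). The megakaryocyte-like share was 14.5% among vehicle and 7.82% among DFO cells, and the HSC-like share 13.0% and 10.7%, while the summed HSC markers were higher in DFO, as given above. Cluster 6, unnamed, consisted of shallow cells with a median of 6930 molecules and a median mitochondrial share of 6.86%. The 13 enzyme and regulator genes of upper and lower glycolysis and Ldha, 14 in all, were summed as the glycolysis level. In both libraries together it was 5026 CPM in cluster 6 and lay between 10091 and 11066 CPM in the other 9 clusters, a ratio of 1.10 from highest to lowest. The HSC-like and megakaryocyte-like clusters were the highest, at 11066 and 11051 CPM. Within clusters the level was lower in DFO in 10 of 10, with differences from −0.23 to −0.069. In thinned cells cluster 6, with 135 vehicle and 122 DFO cells left, was instead at a mean of 50.4 glycolysis molecules in vehicle and 51.6 in DFO. By phase it was lower by 0.18 on the log2 scale in G1, by 0.10 in S and by 0.12 in G2/M cells.

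Some single isoforms differed far more between clusters than the pathway sum did. Ldhb was at 79.6 CPM in the HSC-like cluster and at 12.9 CPM in the megakaryocyte-like one, 6.17% and 0.707% of lactate dehydrogenase molecules. Aldoc was at 24.2 CPM in the HSC-like cluster, its highest value, and Slc2a3 at 157 CPM in the megakaryocyte-like one, also its highest. From the highest cluster to the lowest, Ldhb and Aldoc ranged over 8.55 and 8.24 times, against 2.63 and 4.25 times for Ldha and Aldoa, and cluster 6 was the lowest for these 4 genes. With cluster 6 included, the glycolysis level ranged over 2.20 times, and Slc2a1 and Hk1 ranged less, over 1.55 and 1.80 times. Slc16a3 and Ldha were highest in the megakaryocyte-like cluster as well, at 73.2 and 1813 CPM. Hk2 made up 33.3% of the hexokinase pair in the HSC-like cluster but 15.8% in the megakaryocyte-like one and 12.5% in cluster 7. The transaldolase gene Taldo1 and the transketolase gene Tkt were highest in cluster 8 (led by Trnp1 and Cpa3), at 708 and 505 CPM.

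**Figure D3:**
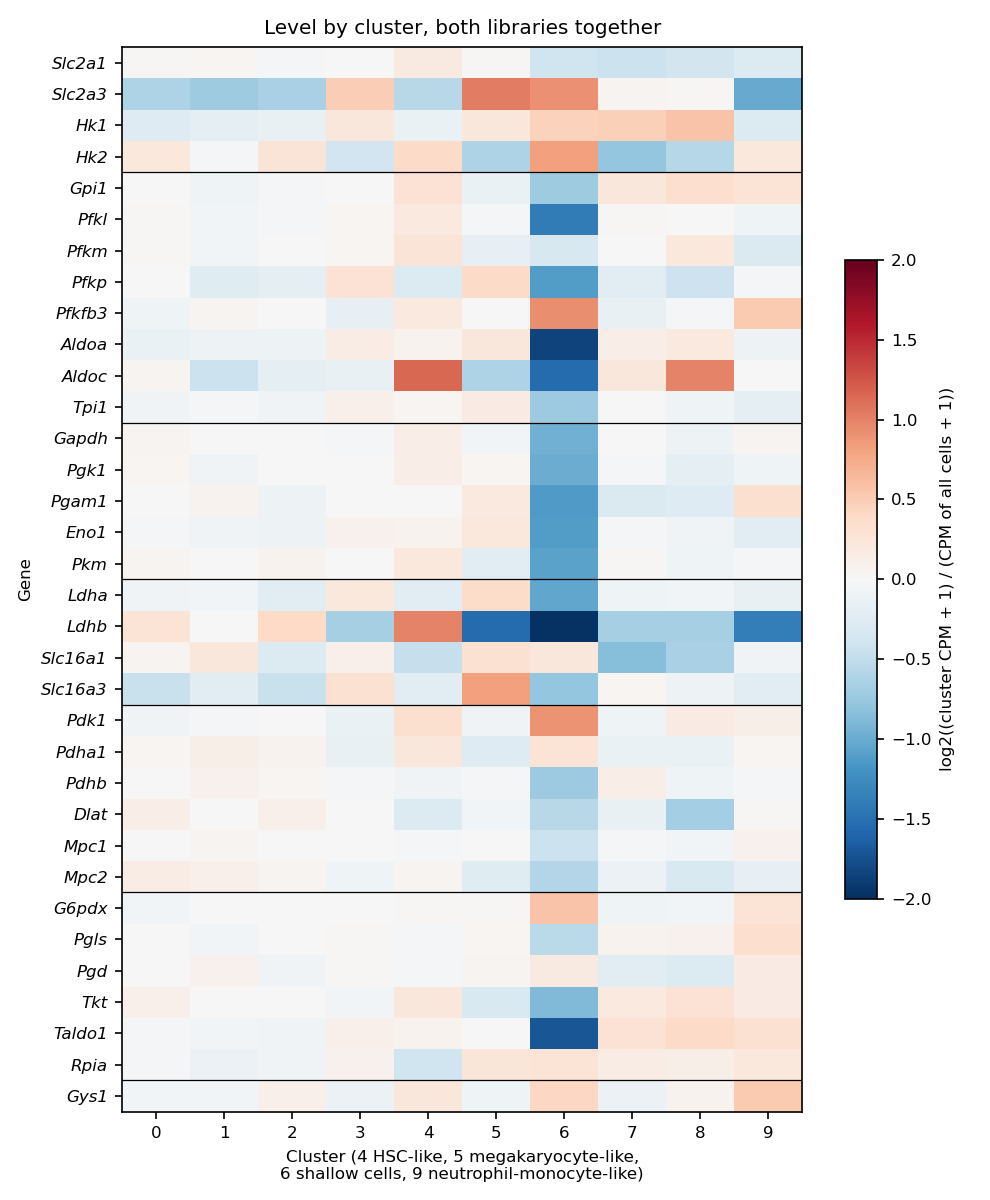
Level of each of the 34 genes (rows, by branch) in clusters 0 to 9 (columns), as log2 of cluster CPM + 1 over the CPM of all cells + 1, both libraries together; red is higher, blue lower. Shallow cluster 6 is lower for most glycolysis enzymes, and Ldhb, Aldoc, Slc2a3 and Slc16a3 separate HSC-like cluster 4 from megakaryocyte-like cluster 5.

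Within every deeper cluster the glycolysis level varied widely from cell to cell. Each cell was thinned to 10000 molecules, which kept 8357 vehicle and 9419 DFO cells and left out 351 and 433 shallower ones. In the vehicle library a cell held a median of 97 glycolysis molecules, with 25th and 75th percentiles of 76 and 141 and 5th and 95th percentiles of 57 and 183. In the DFO library the median was 92, with 76 and 122, and 59 and 162, at the same percentiles. The lower part of the distribution thus lay at nearly the same place in both libraries, and the upper part was lower in DFO. Vehicle cells were most frequent at 70 to 79 molecules (1165 cells), with a shoulder of 433 cells (393 to 476) at 120 to 129 and 475 cells (433 to 520) at 140 to 149, counts whose intervals overlap, whereas DFO counts declined over the same range from 580 to 448 cells. At or above 120 molecules, a limit chosen after the distribution was seen, lay 36.5% (35.5 to 37.6) of vehicle and 26.6% (25.7 to 27.5) of DFO cells, with 10.5% and 12.9% of cells at 110 to 129. The share was lower in DFO in all 9 clusters that held such cells, from 31.7% to 45.7% in vehicle and from 16.7% to 31.7% in DFO. It was 36.9% and 27.3% in female cells and 36.2% and 26.7% in male cells. Clusters accounted for 4.40% of the variance between vehicle cells and 3.74% between DFO cells, and without shallow cluster 6 for 1.09% and 0.790%.

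**Figure D4:**
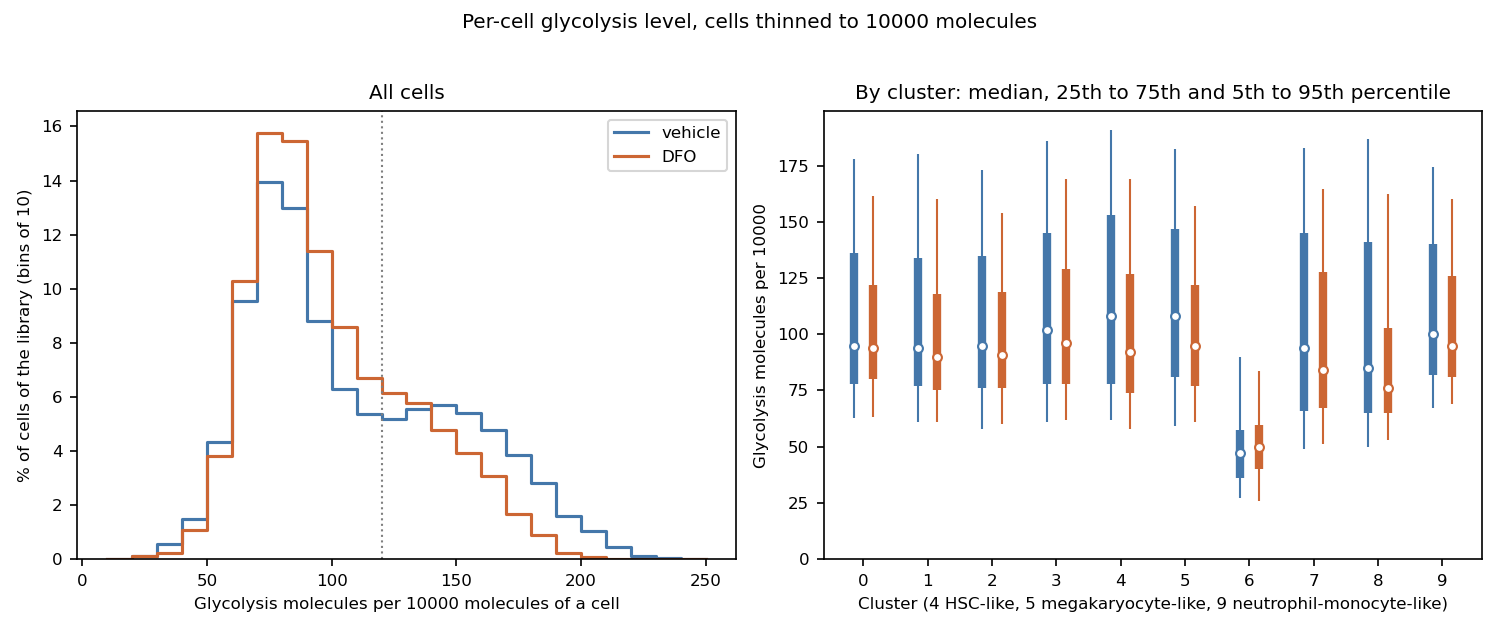
Left, percent of cells (vertical) by number of glycolysis molecules per 10000 molecules of a cell (horizontal, bins of 10) in the vehicle and DFO library; the dotted line lies at 120. Right, median (circle), 25th to 75th percentiles (thick line) and 5th to 95th percentiles (thin line) by cluster: the vehicle range reaches higher than the DFO range in every cluster, cluster 6 being low in both.

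The spread differed between branches. The lactate genes, at a mean of 15.6 molecules per vehicle cell, had a variance 3.50 times their mean, whereas the pentose phosphate genes, at a mean of 14.5, had a variance 1.29 times theirs. In the DFO library these ratios were 2.76 and 1.24, at means of 14.5 and 14.0. Pyruvate entry was at 1.04 and 1.03, close to the 1 of pure counting, but at lower means of 6.05 and 6.31 molecules, which limits the comparison. Its member Pdk1 did vary with the glycolysis level, as given below. Glucose uptake and phosphorylation was at 1.48 and 1.45, at means of 3.05 and 2.87. The glycolysis level had a Pearson correlation of 0.050 with molecules per cell in the vehicle and 0.081 in the DFO library, and of −0.42 and −0.34 with the mitochondrial share, over 8357 and 9419 cells that share a library. The mitochondrial relation was measured beside the spread and its part in it was not tested.

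To show which members follow the pathway, cells were ranked by the glycolysis level without the gene in question, and the 25% of cells with the highest level were compared with the 25% with the lowest. Slc16a3 had the widest range, from 8.81 to 102 CPM in vehicle cells (11.6 times, 9.98 to 13.5) and from 8.10 to 80.6 CPM in DFO cells (9.94 times). Aldoc followed with ratios of 5.61 and 4.04, Eno1 with 3.72 and 2.94 and Slc2a1 with 3.68 and 3.48. In all, 17 of the 34 genes had a ratio of 1.5 or more in both libraries, 12 of them among the 14 glycolysis genes. The ratio was not measured for all genes, so this count has no background share. The others were Slc2a1, Slc2a3, Hk2, Slc16a3 and Pdk1, the last with ratios of 2.47 and 2.36. Slc2a1 and Slc2a3, Aldoa and Aldoc, and Pfkl and Pfkp thus followed as pairs, with Pfkm at 1.42 and 1.22. The partner isoforms of Hk2, Ldha and Slc16a3 did not follow: Hk1 had ratios of 1.10 and 1.08, Ldhb of 1.07 and 0.922, and Slc16a1 of 1.08 and 1.09. Nor did the pyruvate dehydrogenase subunits, the pyruvate carriers or the pentose phosphate genes, with Taldo1 at 0.906 and 0.934 and Rpia at 0.849 and 0.910. The ratio was smaller in DFO for 27 of 34 members. Between the same cells megakaryocyte markers had ratios of 2.00 and 1.51, HSC markers of 0.890 and 0.781 and mitochondrially encoded transcripts of 0.803 and 0.855, and their part in the spread was not tested.

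**Figure D5:**
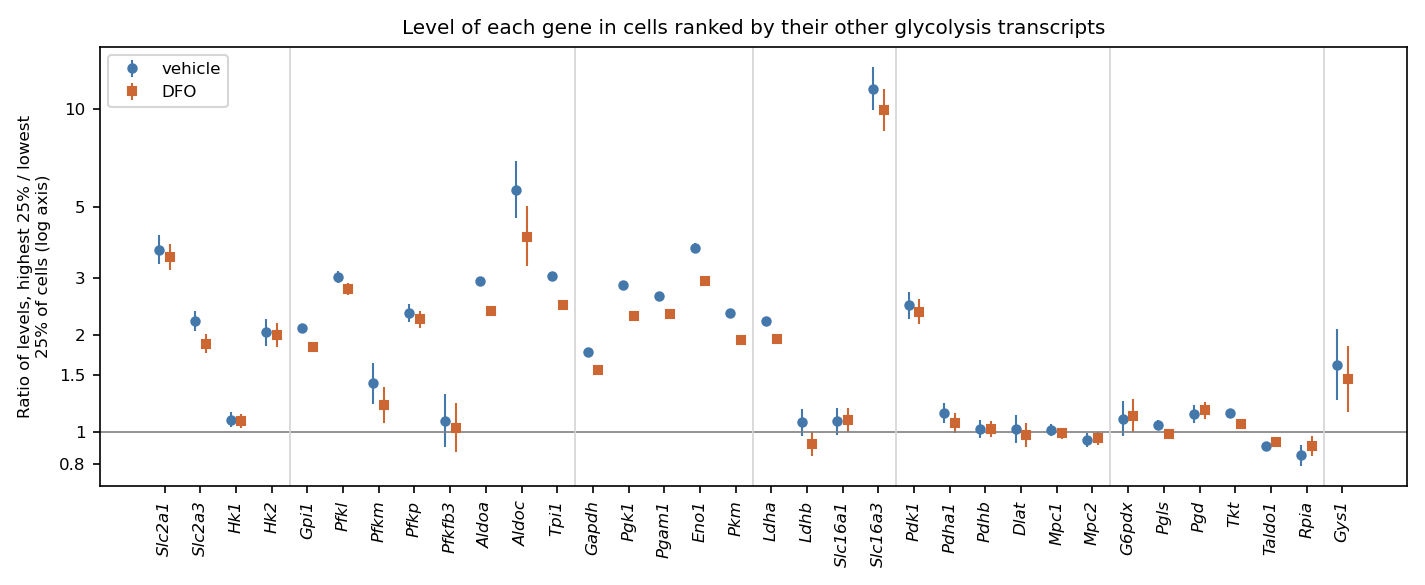
Ratio of each gene's level in the highest over the lowest 25% of cells ranked by their other glycolysis transcripts (log axis), for the vehicle (circles) and DFO (squares) library with 95% counting intervals; grey lines separate branches. Slc16a3 lies near 10, the glycolysis enzymes between 1.5 and 6 apart from Pfkm and Pfkfb3, and the pyruvate entry genes other than Pdk1 and the pentose phosphate genes lie near 1.

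The members that followed the pathway from cell to cell were mostly those lower in the DFO library. Of the 17 with a ratio of 1.5 or more, 15 were lower in DFO, including Aldoc, Slc16a3 and Slc2a3, with a median difference of −0.13; Slc2a1 and Hk2 were higher. Of the other 17, 7 were lower and 10 higher, with a median of 0.041. Of these first 17 genes, 12 belong to the glycolysis sum that ranked the cells, and that sum was itself lower in DFO. The 2 measurements are thus not independent, and setting them side by side is a description. How often other genes that follow the pathway were lower in DFO was not counted.

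Members outside the glycolysis sum were also compared between libraries among cells on the same side of 120 molecules. Slc2a1 was at 30.2 CPM for vehicle against 36.9 CPM for DFO below the limit (0.28), and at 73.5 and 86.7 CPM at or above it (0.24), against 0.12 over all thinned cells. Hk2 differed by 0.24 on both sides and Slc16a1 by 0.20 and 0.22. Over all thinned cells these genes differed by 0.16 and 0.20. Slc16a3 differed by −0.11 below the limit, with an interval that includes 0, and by −0.22 at or above it, against −0.43 over all thinned cells. Slc2a3 differed by −0.075 and −0.23, against −0.246. On each side of the limit Slc2a1, Hk2 and Slc16a1 were thus higher in DFO, and Slc16a3 was closer between the libraries than over all thinned cells. Slc2a3 was closer only below the limit. At or above it the interval, −0.30 to −0.16, includes the value over all thinned cells. Cells on 1 side of the limit still differed in level between the libraries: at 170 to 179 molecules lay 3.84% of vehicle cells and 1.66% of DFO cells.

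Among 5460 other genes at 20 CPM or more, the genes most like the glycolysis level across cells had 4 of their first 5 in common between the libraries. In vehicle cells they were Mif (Pearson r of 0.68), Bnip3 (0.53), Fam162a (0.48), Egln3 (0.46) and Grhpr (0.37), and in DFO cells Mif (0.59), Bnip3 (0.50), Egln3 (0.43), Fam162a (0.41) and Ankrd37 (0.34). The first 20 of each library had 18 genes in common. The median over the 5460 genes was −0.012 in vehicle and −0.0083 in DFO cells, their 99th percentiles were 0.13 and 0.12, and 17 members lay above that percentile in both, each measured without its own molecules. The Hif1a transcript did not follow, with ratios between the ends of the ranking of 0.891 and 0.866. Egln1 and Egln3 did, with ratios of 2.58 and 2.42 and of 5.81 and 5.21. Protein was not measured. These correlations run over 8357 and 9419 cells that share library and depth, and they carry no test.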

How the data were processed

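Per the labels' protocols, the libraries were made with 10x Genomics 3′ v3 kits and sequenced on a BGISEQ-500. The submitters' processing notes name FastQC 0.11.9, Trim Galore 0.6.5, Cell Ranger 3.0.2 and build mm10, with no roles; for the cell filter and the gene annotation the sources used here give nothing. The authors deposited 1 gene by cell table per library in natural log units. The values resolved into whole molecules, all within 0.05 of a molecule, which were summed per library and scaled to CPM. A pseudocount of 1 CPM and a minimum mean of 5 CPM were used, and with 1 library per group there was no test. At this depth the 95% intervals are narrow, and the count of libraries limits precision. Clustering used 2000 variable genes, 30 components, 15 neighbours and Leiden resolution 0.5, with all deposited cells. No doublet caller was run; cells with molecules of both sexes (211 vehicle, 335 DFO) were left out as an alternative. Cells counted as female had 5 or more Xist molecules and no Y-linked ones, and as male at most 1 and at least 2. Analyses ran in Python 3.11.15, scanpy 1.11.5, leidenalg 0.10.2, numpy 2.4.6, scipy 1.17.1 and pandas 2.3.3. The calculation of log2 differences and their intervals was checked on simulated counts.

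The 34 genes and all lists were chosen with earlier results of these data known. Named were all 34 genes, other pathway genes and regulators past 0.25 or described with their family, the 5 genes most correlated with the glycolysis level, and leading cluster genes (top 10 by fold, in 10% or more of cells). Cluster names needed at least 2 markers among those 10. That rule, the limit of 120, the 25% ends of the ranking, the promoters shown and Hif1a, Egln1 and Egln3 as examples were chosen after values were seen. Alternatives were equal weight per cell, equal cluster shares, other scalings, pseudocounts, minimums, cell filters, thinning, single sexes and other resolutions.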

Additional observations from a re-analysis of the deposited data

Results flagged for a closer look

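Within clusters, 3 of the 34 genes differed between the libraries in opposite directions, with counting intervals away from 0 on both sides; the difference between clusters was not tested, and each cluster has 1 library per group. Slc2a1 differed by −0.25 in cluster 7 and by 0.099 in cluster 3, 0.46 in cluster 6 and 0.51 in cluster 9. Pfkp differed by −0.070 in cluster 0 and −0.14 in cluster 7, but by 0.066 in cluster 3. Taldo1 differed by −0.047 in cluster 3, and by 0.061 in cluster 2, 0.072 in cluster 4 and 0.051 in cluster 7.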

How the results depend on the processing

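The median over the 34 genes and the count of genes at −0.25 or lower (2 or 3) stayed near their reported values under all 13 alternatives tried for each, and no branch sum changed sign. Of the 34 genes 21 were lower and 10 higher throughout 11 ways of counting. Branch sums moved beyond counting error as follows. With each cell weighted equally, upper glycolysis was −0.20, lower glycolysis −0.097 and pentose phosphate −0.064. With equal cluster shares, uptake was −0.053, upper glycolysis −0.17, lower glycolysis −0.10, lactate −0.094 and pyruvate entry 0.039. Scaled without mitochondrially encoded and ribosomal protein genes, in the same order and with pentose phosphate last, they were −0.14, −0.21, −0.11, −0.14, 0.035 and −0.075, and with median-of-ratios scaling −0.13, −0.21, −0.11, −0.14, 0.036 and −0.074. With thinned cells, uptake was −0.089, upper glycolysis −0.20 and lactate −0.11. In female cells lower glycolysis was −0.093, and in male cells upper glycolysis was −0.17, lower glycolysis −0.078 and lactate −0.11. The cause was not tested. The ratio between clusters in glycolysis level, 1.10, was 1.05 at resolution 0.25, 1.34 at resolution 1.0 and 1.11 with thinned cells, and the level was lower in DFO each time in every cluster with a median of 10000 molecules or more, which leaves out shallow cluster 6. No paired analysis was possible because each group has 1 library. Neither variation between cultures nor the RNA content of a cell was measured, so a lower share of molecules is not a lower amount per cell.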
